A study of Rattus norvegicus with 12 samples.

Results

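Penk, Drd1, Drd2 and Adora2a are 4 genes well known from striatal projection neurons, and they were followed here in RNA from the prefrontal cortex. They were chosen by identifier: ENSRNOG00000008943 (Penk), ENSRNOG00000023688 (Drd1), ENSRNOG00000008428 (Drd2) and ENSRNOG00000001302 (Adora2a). All 4 were among the 43206 genes of the deposited files. The symbols came with the identifiers and could not be checked against the files, which name genes by identifier only. The series holds 12 libraries from SD rats at postnatal day 28. There were 4 libraries each of normal rats, of an HIBD model (hypoxic-ischemic brain damage) and of rats given acupuncture. The labels of the acupuncture group give only that treatment, while the series title sets it in rats with the same damage. The labels do not give how the damage was made, where the needles were placed, or whether the normal rats had a sham procedure. The labels do not state that each library is a separate animal, and p-values refer to the spread among libraries, which may be technical.

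Projection neurons of the striatum fall into a pair of pathways. Those of the direct pathway carry the dopamine receptor encoded by Drd1, which couples to stimulatory G proteins and raises cAMP. Those of the indirect pathway carry the dopamine receptor encoded by Drd2, which lowers cAMP, together with the adenosine receptor encoded by Adora2a, which raises it, and they make enkephalin from the precursor encoded by Penk. In the cortex, Drd1 and Drd2 are expressed in subsets of neurons, Penk mainly in some interneurons, and Adora2a at low levels. In tissue RNA, fewer cells of a type and less RNA per cell cannot be told apart.

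The total estimated count per library ranged from 714904584 to 1090316733, and 27845 to 30014 genes were above 0. No library was left out. Other genes of the dopamine, adenosine and opioid systems, and markers of cortical neurons and of other cell types, were not analysed here, because no table pairs their symbols with the identifiers. The labelled tissue was therefore not checked against its markers.

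Levels between genes are compared as FPKM, a unit meant to scale for transcript length and library size. Whether these values are scaled for length was not tested. By FPKM, Penk had the highest level in all 12 libraries, followed by Drd1. Adora2a came next and Drd2 last in 11 of the 12 libraries, and in HIBD model replicate 16 the last 2 changed places. Drd1 was 1.02 to 6.03 times the level of Adora2a within a library, and Drd2 was 0.488 to 1.39 times that of Adora2a. The ranges of Penk and Drd1 did not overlap in the normal and in the acupuncture group and did in the HIBD model. Those of Drd1 and Adora2a, and of Adora2a and Drd2, overlapped in every group.

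Penk encodes proenkephalin, the precursor that is cut into the enkephalin opioid peptides. It measured 217, 90.3, 51.3 and 182 FPKM in normal replicates 8, 10, 11 and 13. It measured 161, 36.7, 21.9 and 119 FPKM in HIBD model replicates 2, 8, 16 and 18. In acupuncture replicates 5, 22, 35 and 55 it measured 51.3, 29.0, 29.6 and 24.8 FPKM. Normal replicate 8 was the highest library and HIBD model replicate 16 the lowest, 9.88-fold apart. The group means were 135 ± 77.2, 84.8 ± 66.6 and 33.7 ± 11.9 FPKM (SD, n = 4 each) in normal, HIBD model and acupuncture. All 4 acupuncture libraries lay below all 4 normal libraries, but acupuncture replicate 5 (51.27 FPKM) and normal replicate 11 (51.29 FPKM) were nearly level. The HIBD model libraries spread over both ranges.

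Drd1, the receptor of the direct pathway, measured 45.3, 26.3, 11.6 and 46.7 FPKM in normal replicates 8, 10, 11 and 13. It measured 35.8, 7.08, 4.56 and 15.5 FPKM in HIBD model replicates 2, 8, 16 and 18. In acupuncture replicates 5, 22, 35 and 55 it measured 8.16, 4.89, 4.80 and 4.20 FPKM. Normal replicates 8 and 13 and HIBD model replicate 2 stood at the top, as they did for Penk. The group means were 32.5 ± 16.8, 15.7 ± 14.2 and 5.51 ± 1.79 FPKM (SD, n = 4 each), and the acupuncture and normal ranges did not overlap.

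Drd2, the dopamine receptor of the indirect pathway, had the lowest mean FPKM of the 4. It measured 19.3, 8.53, 2.75 and 13.4 FPKM in normal replicates 8, 10, 11 and 13. It measured 13.4, 4.12, 1.05 and 3.73 FPKM in HIBD model replicates 2, 8, 16 and 18. In acupuncture replicates 5, 22, 35 and 55 it measured 4.65, 1.85, 0.943 and 1.12 FPKM. The lowest and highest libraries were 20.5-fold apart, more than for Penk or Drd1. The group means were 11.0 ± 7.04, 5.58 ± 5.41 and 2.14 ± 1.72 FPKM (SD, n = 4 each). Acupuncture replicate 5 lay inside the normal range, and the other 3 acupuncture libraries lay below it.

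Adora2a, the adenosine receptor of the same pathway, varied most. It measured 33.7, 13.1, 4.61 and 25.7 FPKM in normal replicates 8, 10, 11 and 13. It measured 26.6, 5.29, 0.757 and 7.63 FPKM in HIBD model replicates 2, 8, 16 and 18. In acupuncture replicates 5, 22, 35 and 55 it measured 7.96, 3.08, 1.06 and 1.62 FPKM. The range over all libraries was 44.5-fold, of which 35.1-fold lay within the HIBD model group alone. The group means were 19.3 ± 12.9, 10.1 ± 11.4 and 3.43 ± 3.14 FPKM (SD, n = 4 each), so the SD exceeded the mean in the HIBD model group. Acupuncture replicate 5 again lay inside the normal range.

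**Figure D1:**
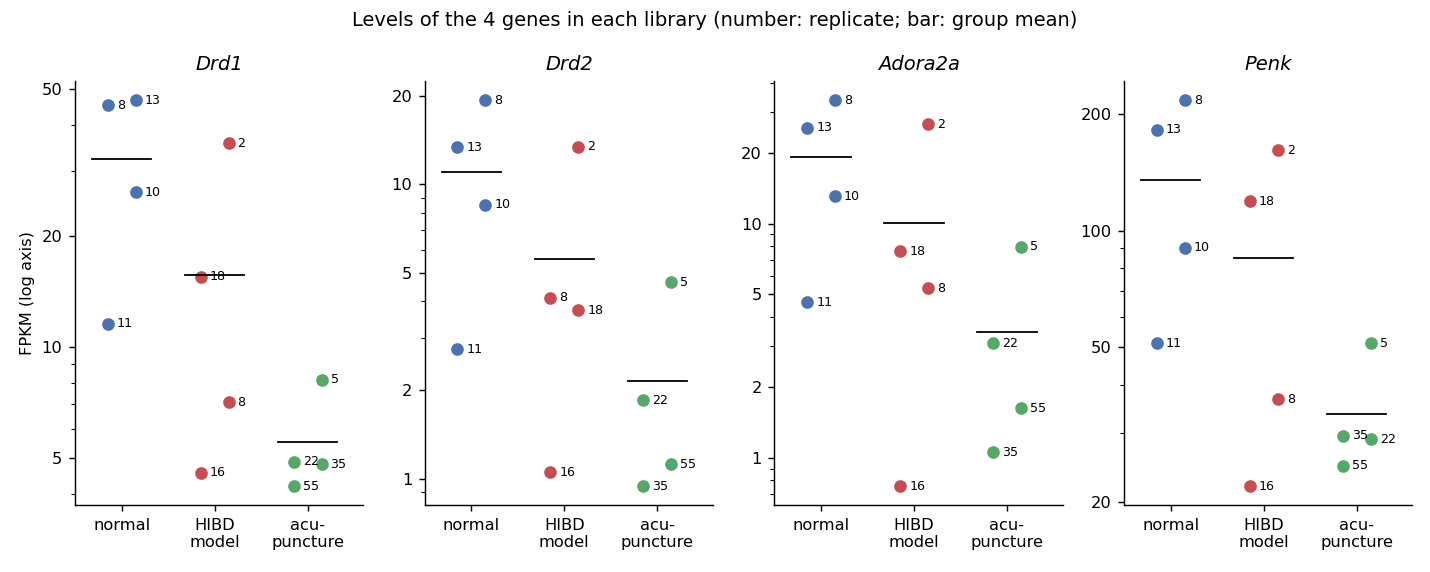
FPKM of Drd1, Drd2, Adora2a and Penk in each library on a log axis, by group, with the replicate number beside each point and a bar at the group mean. Normal replicates 8 and 13 and HIBD model replicate 2 are the 3 highest libraries for every gene, and HIBD model replicate 16 is among the lowest 2.

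The promoter of Drd2 is shown because Drd2 kept closest to another member over the libraries and is the one for which the RefSeq table (GRCr8) holds a start at the edge of the annotated gene. It holds Drd1 with a start inside the annotated gene, which is not printed, and Adora2a and Penk were not matched. The 250 bases before the Drd2 start, on the plus strand at chr8:58605153-58605402, are given with matches to the GC box (GGGCGG or its reverse complement CCGCCC) in capitals.
Drd2: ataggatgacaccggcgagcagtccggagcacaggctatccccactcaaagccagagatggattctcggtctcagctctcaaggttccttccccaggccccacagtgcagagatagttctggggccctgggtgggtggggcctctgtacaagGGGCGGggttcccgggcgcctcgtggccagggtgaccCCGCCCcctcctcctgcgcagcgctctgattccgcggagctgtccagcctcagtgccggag
The 2 GC boxes began 98 and 61 bases before the start, the one on the plus and the other on the minus strand. Of 33469 rat promoters of this length, 30.5% held a GC box and 14.8% held at least 2. No match was found on either strand for TATAAA (held by 12.9% of promoters), for CCAAT (34.0%), or for the cAMP response element TGACGTCA (1.59%) and the TGACG within it (18.2%). The window was 66.0% G and C, against a median of 51.2% over all promoters.

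Set against normal libraries, the HIBD model addresses the effect of the injury. At an adjusted p under 0.05 in edgeR, 0 of the 4 genes passed, and 0.0968% of the 27885 genes tested did. All 4 had lower estimates in the HIBD model group, and for 0 of 4 did the FPKM ranges separate (HIBD model lower without overlap in 7.48% of genes). In edgeR, fitted on estimated counts summed per gene, the log2 fold change was -0.65 (SE 0.59, adjusted p = 0.574) for Penk and -0.49 (SE 0.39, adjusted p = 0.515) for Drd1. It was -0.95 (SE 0.78, edgeR adjusted p = 0.532) for Drd2 and -0.93 (SE 0.94, edgeR adjusted p = 0.626) for Adora2a. Each estimate was about as large as its standard error or little more, and HIBD model replicate 2, the highest of its group for every gene, lay in the upper part of the normal range. Single libraries moved the values by more than 1.5 times. Without HIBD model replicate 2 they were -1.11 for Penk, -1.76 for Drd2 and -1.98 for Adora2a, and without normal replicate 8 they were -0.27, -0.48 and -0.45. Leaving out HIBD model replicate 16 gave -0.35, -0.61 and -0.54, in the same order. For Drd1 the values ran from -0.73 to -0.30 over libraries left out. The median over the 4 genes was -0.79, against 0.01 over all genes tested.

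The treatment itself is addressed by acupuncture against HIBD model libraries. None of the 4 genes passed, and 0.00% of all genes did in edgeR, with 1481 genes (5.31% of those tested) at an unadjusted p under 0.05. Limma-voom called 0 genes of all tested and DESeq2 181, none of them a member. The log2 fold change was -1.21 (SE 0.59, edgeR adjusted p = 0.971) for Penk, -1.26 (SE 0.78, edgeR adjusted p = 1.0) for Drd2 and -1.41 (SE 0.95, edgeR adjusted p = 1.0) for Adora2a. Without HIBD model replicate 2 these were -0.75, -0.45 and -0.36, and without acupuncture replicate 5 they were -1.52, -2.02 and -2.29. For Drd1 the log2 fold change was -0.07 (SE 0.39, edgeR adjusted p = 1.0), and its sign turned when HIBD model replicate 2 (0.16) or acupuncture replicate 35 (0.15) or 55 (0.03) was left out. HIBD model replicate 16 lay at or below the acupuncture libraries for Penk and Adora2a, so the groups overlapped at the low end.

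Acupuncture against normal libraries addresses how far the treated group lay from normal. This comparison held the largest differences of the 3 comparisons for all 4 genes. None passed in edgeR, where 0.0825% of all genes did. The log2 fold change was -1.86 (SE 0.60, edgeR adjusted p = 0.114) for Penk, -2.21 (SE 0.81, edgeR adjusted p = 0.138) for Drd2 and -2.33 (SE 0.98, edgeR adjusted p = 0.177) for Adora2a. These 3 had an unadjusted p under 0.05, as did 24.5% of all genes tested, and they passed in DESeq2 (adjusted p = 0.0143, 0.0232 and 0.0469), which called 15.5% of all genes tested. Leaving out 1 library moved their edgeR values to between -1.52 and -2.15 for Penk, -1.78 and -2.94 for Drd2, and -1.91 and -3.18 for Adora2a. For Drd1 the value was -0.56 (SE 0.39, edgeR adjusted p = 0.406). In FPKM, 2 of the 4 genes, Penk and Drd1, had all acupuncture libraries below all normal libraries, as did 15.4% of all genes tested. For Penk this rests on the near tie given above, and in CPM the groups overlapped for all 4 genes. On the log2(FPKM + 0.1) scale the median of all genes tested stood at -0.10 in this comparison, and the members at -1.84 (Penk), -2.39 (Drd1), -2.27 (Drd2) and -2.51 (Adora2a). The normal and the HIBD model libraries each enter 2 of the 3 comparisons, so these do not give separate evidence.

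**Figure D2:**
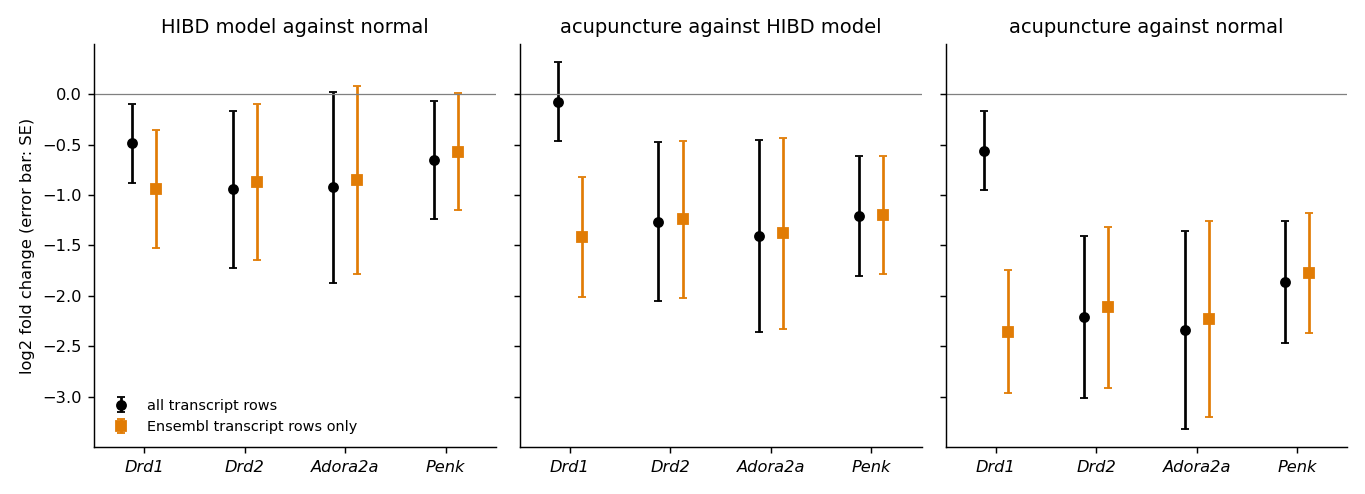
Log2 fold changes of the 4 genes in the 3 comparisons, with the standard error as bar, from edgeR on all transcript rows (circles) and on rows with an Ensembl transcript identifier (squares). All estimates lie below 0, and the squares lie well below the circles for Drd1, which moves from -0.56 to -2.35 between acupuncture and normal.

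Drd1 was lower in FPKM by as much as the other genes but not in estimated counts, and its transcript rows show where the values part. Drd1 had 5 rows, 1 annotated (ENSRNOT00000030893) and 4 from a transcript assembler. The annotated row held 87.3% to 95.5% of the FPKM of the gene. The assembled row TCONS_00137774 held 0.357% to 6.87% of the FPKM, but 28.5% to 89.0% of the estimated count. In these files, 1 FPKM was worth a median of 17351 estimated counts in that row and 137 in the annotated row. The assembled row had estimated counts of 2898, 3034, 2032 and 4108 in normal replicates 8, 10, 11 and 13. Its counts of 4234, 6140, 1592 and 3530 in acupuncture replicates 5, 22, 35 and 55 overlapped these widely. The annotated row had 6045, 3246, 1503 and 6554 estimated counts in the same normal libraries and only 830, 619, 579 and 556 in the acupuncture libraries. What the assembled row represents is not known from the files.

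With rows of Ensembl transcripts alone, a setting chosen after seeing the data, the log2 fold change of Drd1 was -0.94 (SE 0.59, edgeR adjusted p = 0.518) between HIBD model and normal. It was -1.42 (SE 0.59, edgeR adjusted p = 0.720) between acupuncture and HIBD model and -2.35 (SE 0.61, edgeR adjusted p = 0.122) between acupuncture and normal. None of these passed. Limma-trend on log2(FPKM + 0.1) gave -2.39 (SE 0.58, adjusted p = 0.0455) for Drd1 between acupuncture and normal, which passed, where that setting called 6.24% of all genes tested. On log2(FPKM + 1) limma-trend gave -2.22 (SE 0.55, adjusted p = 0.0668), which did not pass, and 1 gene of all tested did.

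Drd2 had 2 rows, both annotated, and their balance differed between libraries of a group. ENSRNOT00000083419 held 50.4%, 53.6%, 5.68% and 4.93% of the FPKM of Drd2 in normal replicates 8, 10, 11 and 13. In the HIBD model replicates 2, 8, 16 and 18 it held 28.7%, 18.8%, 24.6% and 7.42%. It held 11.3%, 22.9%, 20.8% and 25.3% in acupuncture replicates 5, 22, 35 and 55. Normal replicates 8 and 13, both high in total Drd2, lay at opposite ends of this share. Penk had 2 annotated rows, of which ENSRNOT00000011892 held at least 96.5% of the FPKM in every library, and Adora2a had 1.

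**Figure D3:**
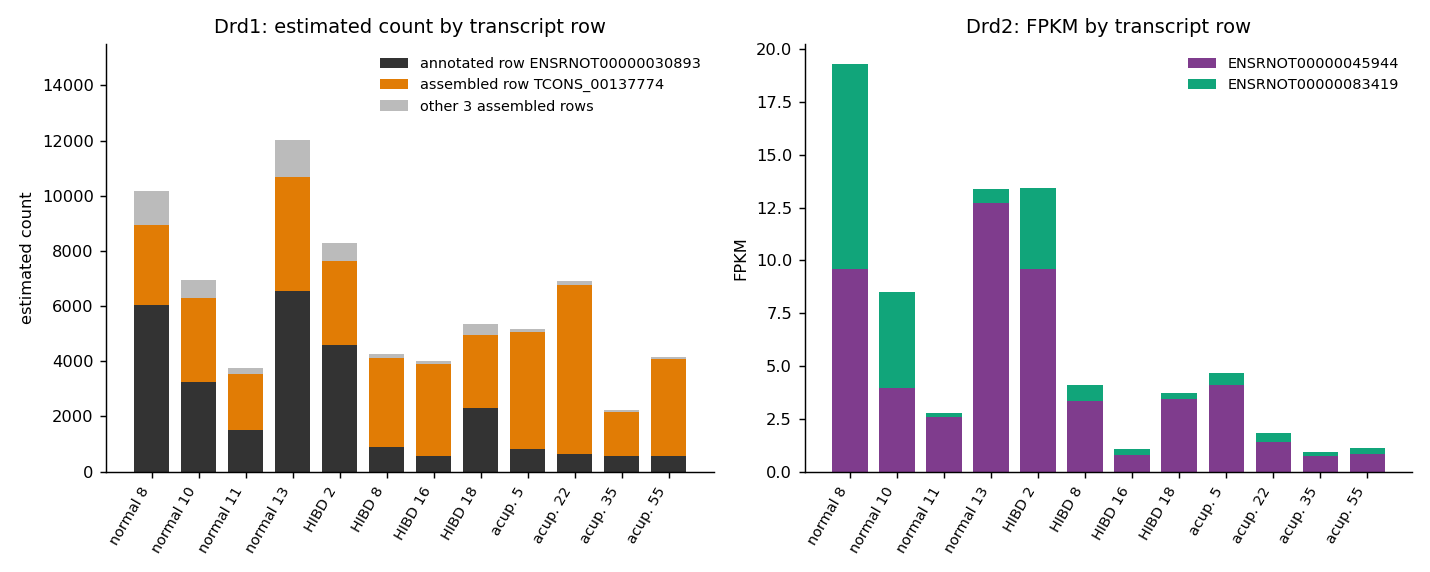
Left, estimated count of Drd1 in each library, split into the annotated row, the assembled row TCONS_00137774 and the other 3 assembled rows. Right, FPKM of Drd2 split into its 2 annotated rows. The assembled row makes up most of the Drd1 bar in all acupuncture libraries (71.4% to 89.0%). It also does so in HIBD model replicates 8 and 16 (75.6% and 82.8%) and normal replicate 11 (54.0%). The annotated row makes up most of the bar in normal replicates 8 and 13 (59.5% and 54.6%) and HIBD model replicate 2 (55.5%).

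Whether the 4 genes vary together between libraries of a group was read from log2 CPM (estimated counts scaled to a common library total with TMM factors, 0.5 added) after subtracting each group's mean. In 9 of 12 libraries all 4 genes lay on the same side of their group's mean, above it in 4 libraries and below it in 5. Normal replicates 8 and 13, HIBD model replicate 2 and acupuncture replicate 5 were above for every gene. Normal replicates 10 and 11, HIBD model replicate 16 and acupuncture replicates 35 and 55 were below for every gene. In normal replicate 10, Drd1 (-0.030) and Drd2 (-0.055) lay close to the mean. The widest deviations were those of Adora2a, from -2.28 in HIBD model replicate 16 to 2.00 in HIBD model replicate 2. How often other sets of 4 genes share a side was not counted.

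**Figure D4:**
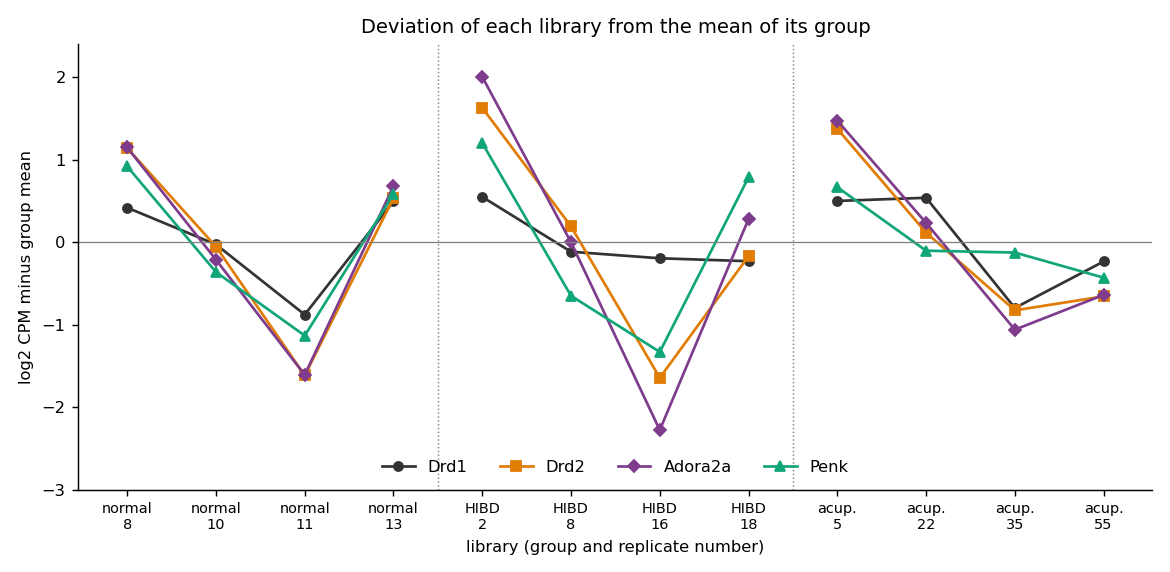
Log2 CPM of each gene minus the mean of its group, by library; lines join the values of a gene only to guide the eye, since replicates have no order. All 4 genes share a side in 9 of 12 libraries, and Drd1 has the narrowest range, from -0.88 to 0.55.

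Drd2 and Adora2a, the receptor pair of the indirect pathway, were the closest pair. Pearson's r of their deviations was 0.98 (12 libraries, two-sided exact permutation within groups, p = 0.000217, adjusted over 6 pairs 0.000651), and Spearman's rho was 0.95 (exact permutation p = 0.000362, adjusted 0.00109). Of the 27884 other genes tested, none had a higher r with Drd2 than Adora2a, and Drd2 ranked 4 among those of Adora2a. Adora2a and Penk had r = 0.91 (exact permutation p = 0.000217, adjusted 0.000651) and rho = 0.90 (exact permutation p = 0.000289, adjusted 0.00109). Drd2 and Penk had r = 0.86 (exact permutation p = 0.00130, adjusted 0.00260) and rho = 0.77 (exact permutation p = 0.0162, adjusted 0.0194). By r with Adora2a, Penk ranked 68 of 27884 genes, and Adora2a ranked 126 by r with Penk. By r with Drd2, Penk ranked 148, and Drd2 ranked 292 by r with Penk (1.05% of genes at least as high). These 3 pairs passed after adjustment, as did the 3 with Drd1 given below, so all 6 pairs passed.

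Drd1, of the other pathway, correlated with all 3 in estimated counts, and whether its r differed from theirs was not tested. It had r = 0.83 with Drd2 (exact permutation p = 0.00181, adjusted 0.00271) and rho = 0.84 (exact permutation p = 0.00311, adjusted 0.00622). With Adora2a it had r = 0.79 (exact permutation p = 0.00239, adjusted 0.00286) and rho = 0.79 (exact permutation p = 0.00904, adjusted 0.0136). With Penk it had r = 0.64 (exact permutation p = 0.0141, adjusted 0.0141) and rho = 0.62 (exact permutation p = 0.0331, adjusted 0.0331). The call for Drd1 and Penk was lost without normal replicate 11 (r = 0.51, exact permutation p = 0.0738). By r with Drd1, Drd2 ranked 118 and Adora2a 204 among 27884 genes. Drd1 ranked 252 by r with Drd2 and 625 by r with Adora2a. Penk ranked 1113 among 27884 genes by r with Drd1, where 3.99% of genes had an r at least as high. By r with Penk, Drd1 ranked 2343, where 8.40% did. On the log2(FPKM + 0.1) scale, where the annotated row carries the gene, Drd1 had r = 0.97 with Penk, 0.92 with Adora2a and 0.91 with Drd2. With Ensembl transcript rows alone the values were 0.96, 0.91 and 0.89. Without the assembled rows, Drd1 and Penk were thus the closest pair after Drd2 and Adora2a.

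Each r was recomputed without the 2 libraries farthest from the median of the gene named first in the pair. It was then 0.98 for Drd2 and Adora2a (exact permutation p = 0.00347), 0.83 for Adora2a and Penk (exact permutation p = 0.00260) and 0.78 for Drd1 and Drd2 (exact permutation p = 0.0451). For Drd2 and Penk it was 0.69 (exact permutation p = 0.0521), for Drd1 and Adora2a 0.74 (exact permutation p = 0.0613) and for Drd1 and Penk 0.64 (exact permutation p = 0.0683). These last 3 relations did not pass 0.05 over the 10 libraries kept. The r itself fell from 0.86 for Drd2 and Penk, which rests in part on the libraries left out, and changed little for Drd1 with Penk or Adora2a. Normal replicate 11 was left out in 5 of the 6 pairs, HIBD model replicate 16 in 3 and acupuncture replicate 35 in 3.

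**Figure D5:**
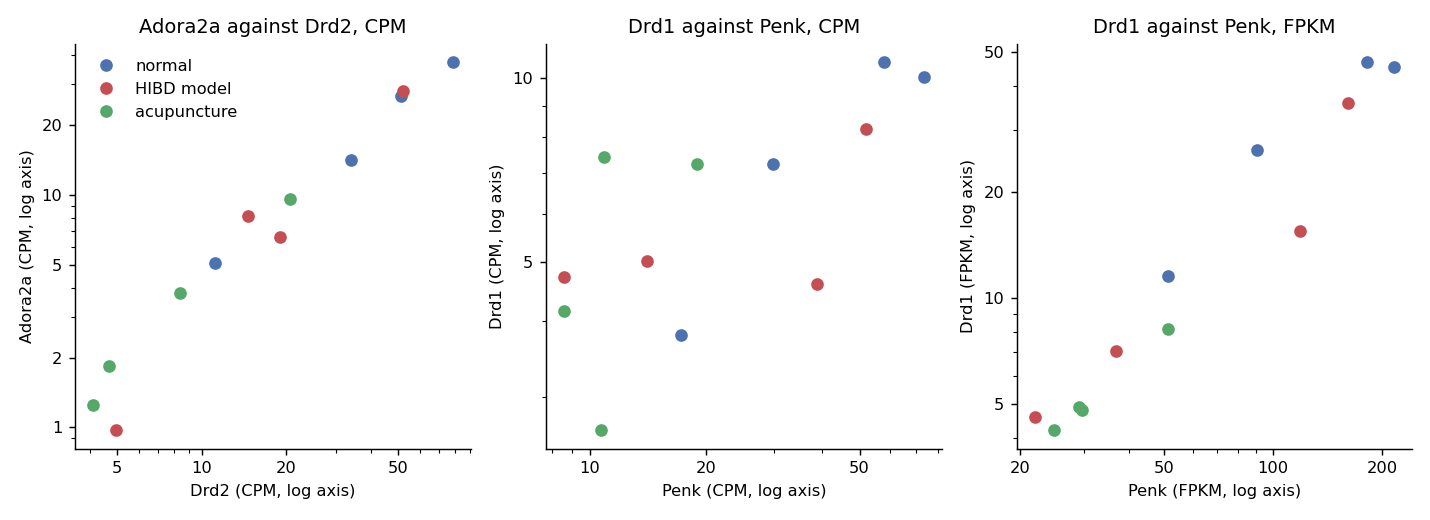
Levels of pairs of genes in the 12 libraries on log axes, coloured by group. Adora2a follows Drd2 closely (r of deviations 0.98), while Drd1 scatters against Penk in CPM (0.64) and follows it in FPKM (0.97 on the log2(FPKM + 0.1) scale).

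The spread of the 4 genes between libraries of a group was set beside that of genes of like level, within 1 log2 CPM of the member's mean. The SD within groups was 1.39 for Adora2a, larger than in 98.6% of 4838 such genes, whose median SD was 0.21. It was 1.18 for Drd2 (above 98.7% of 4385 genes) and 0.91 for Penk (above 97.6% of 4177 genes). For Drd1 it was 0.56 on summed estimated counts, above 84.4% of 4847 genes. On this scale Adora2a, Drd2 and Penk were thus among the most variable genes of their level within a group. Drd1, with 757 more variable genes of like level, was less so, but its sum holds the assembled row. In log2 FPKM the SD within groups was 0.96 for Drd1, 1.0 for Penk, 1.27 for Drd2 and 1.61 for Adora2a. These FPKM values were not ranked among genes of like level.

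Ratios within a library remove a factor that 2 genes share. The log2 ratio of Drd1 to Penk in FPKM had an SD of 0.23 within groups, where Drd1 alone had 0.96 and Penk alone 1.0. Drd1 reached 0.209, 0.291, 0.226 and 0.257 of the Penk level in normal replicates 8, 10, 11 and 13. The ratios were 0.222, 0.193, 0.208 and 0.130 for HIBD model replicates 2, 8, 16 and 18. They were 0.159, 0.169, 0.162 and 0.169 for acupuncture replicates 5, 22, 35 and 55. The acupuncture ratios were close to one another and all below the normal ones. The difference in the mean log2 ratio was -0.56 between acupuncture and normal (two-sided exact permutation p = 0.0286, the smallest that 4 against 4 libraries allow, adjusted over 18 tests 0.514). In estimated counts, where the assembled row enters Drd1, the sign turned and the difference was 1.14 with the same p (exact permutation p = 0.0286, adjusted 0.171). HIBD model minus normal came to -0.40 (exact permutation p = 0.0571, adjusted 0.514), and acupuncture minus HIBD model to -0.16 (exact permutation p = 0.4, adjusted 0.943).

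The log2 ratio of Drd2 to Adora2a had an SD of 0.44 within groups, against 1.27 and 1.61 for the genes alone. The ratio ran from 0.521 to 0.651 in normal libraries and from 0.583 to 0.893 in acupuncture libraries. In the HIBD model libraries it ran from 0.488 to 1.39, the highest being replicate 16, where both genes were near their lowest level. The log2 ratio of Drd1 to Drd2 pairs a gene of the direct with one of the indirect pathway. Whether it measures the balance of these pathways in prefrontal cortex was not tested. The ratio averaged 1.68 ± 0.35 in normal, 1.59 ± 0.63 in HIBD model and 1.62 ± 0.66 in acupuncture libraries (SD, n = 4 each). Its differences between groups lay between -0.09 and 0.03 (exact permutation p from 0.857 to 0.943, adjusted 0.943), where the SD of a group was 0.35 to 0.66. This holds for FPKM, since in estimated counts the differences were 0.68 (HIBD model minus normal, exact permutation p = 0.371), 0.96 (acupuncture minus HIBD model, exact permutation p = 0.2) and 1.63 (acupuncture minus normal, exact permutation p = 0.0286, adjusted 0.171). None of the 18 tests on 6 ratios in FPKM passed after adjustment.

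Likeness was ranked over 17174 other genes whose mean log2 CPM was 0 or more. The 2 whose deviations were most like those of the members were ENSRNOG00000003800 and ENSRNOG00000022337. Their r, averaged over the 4 members, was 0.92 and 0.91 (12 libraries, deviations from group means). ENSRNOG00000003800 had r = 0.99 with Adora2a, 0.97 with Drd2, 0.87 with Penk and 0.84 with Drd1. It measured 28.9, 13.7, 5.09 and 24.6 FPKM in normal replicates 8, 10, 11 and 13. HIBD model replicates 2, 8, 16 and 18 had 21.8, 6.13, 1.53 and 8.92 FPKM. In acupuncture replicates 5, 22, 35 and 55 it measured 10.00, 4.58, 1.55 and 1.88 FPKM, so that the same libraries were high and low as for Adora2a. The 2 genes most opposed were ENSRNOG00000005369 and ENSRNOG00000009972, with a mean r of -0.89 each. ENSRNOG00000005369 ranged from 275 CPM in normal replicate 13 to 464 CPM in acupuncture replicate 35, a far smaller range than that of the members. An averaged r above 0.8 was found for 168 genes (0.978%) and one below -0.8 for 90 (0.524%). These genes were picked by their r, so no test is given, and the files do not name them.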

How the data were processed

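RNA from frozen prefrontal cortex was extracted with Trizol and made into libraries with an NEBNext kit, per the labels' protocols. HTSeq 0.6.0 and the build Rnor_6.0 are named, with no role, per the submitters' processing notes. Aligner and assembler were not given in the sources used here. Under the name of read counts, the authors deposited a table of 78025 transcript rows for 12 libraries. These values behaved as estimated counts: each was the deposited FPKM value of the same row times a factor of the row and one of the library, with a median deviation of 0.00103% over 12003 rows above 2000 in every library, against 17.9% with rows shuffled. This relation shows that the rows match. It does not show that the values count reads, and whether the row factor follows transcript length was not tested. EdgeR and DESeq2 model the values as counts, and whether that model holds for them was not tested. Among member rows, 1 FPKM was worth a median of 137 (annotated Drd1) to 17351 (TCONS_00137774) estimated counts. It was alike in both rows of Penk (331 and 304) and of Drd2 (3985 and 3972). The summed estimated count of Drd1 thus weights that assembled row heavily. What 1 estimated count is worth in reads is unknown, so no counting interval is given. The authors deposited FPKM values per row, labelled by gene; the unit was read from the values.

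Rows were summed per gene. Estimated counts were tested with edgeR 4.0.16 (quasi-likelihood, TMM, filterByExpr) in R 4.3.3, all 12 libraries in 1 fit, with Benjamini-Hochberg adjustment over 27885 genes; standard errors came from the F statistic. The fit was checked on simulated counts with the same spread setting for every gene, which does not cover genes as variable as the members. The permutation tests were checked on simulated normal values. Within-group correlations used all 13824 reorderings of libraries within groups, and ratios all 70 assignments of 8 libraries. Alternatives were RLE, DESeq2 1.42.0, limma 3.58.1 (voom, and trend on log2 FPKM), other filters, 2-group fits, Ensembl genes only and each library left out. The members and lists were chosen with earlier results of these data known. The named genes were the 4 members and the 2 most and 2 least alike by mean within-group r; 7 gene lists and the cell type markers needed symbols and were not analysed here.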

Additional observations from a re-analysis of the deposited data

How the results depend on the processing

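The members' log2 fold changes kept their direction in 261 of 264 alternative values, and the 3 exceptions are those of Drd1 between acupuncture and HIBD model (range -0.27 to 0.16 over libraries left out). Calls were gained between acupuncture and normal for Penk (-1.85), Drd2 (-2.20) and Adora2a (-2.33) with DESeq2 and for Drd1 (-2.39) with limma-trend on log2(FPKM + 0.1); the cause was not tested. Of 108 alternative correlations, 107 kept their sign and call, and that of Drd1 and Penk ranged from 0.51 to 0.75 over libraries left out. No paired analysis was possible because the groups share at most 1 replicate number in the labels.

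With estimated counts in place of FPKM, whose sums for Drd1 hold the assembled row, the log2 ratio of Drd1 to Penk turned to 0.37 (HIBD model against normal), 0.77 (acupuncture against HIBD model) and 1.14 (acupuncture against normal). That of Drd1 to Drd2 turned to 0.68 and 1.63 in both comparisons with normal, and that of Drd1 to Adora2a to 0.88 between acupuncture and HIBD model. With 0.1 FPKM added, Drd1 to Drd2 was -0.0030 between acupuncture and HIBD model. Over libraries left out, differences near 0 changed sign. Between HIBD model and normal they ranged from -0.27 to 0.18 (Drd1 to Drd2), -0.28 to 0.44 (Drd1 to Adora2a), -0.016 to 0.49 (Drd2 to Adora2a) and -0.60 to 0.012 (Drd2 to Penk). Between acupuncture and HIBD model they ranged from -0.24 to 0.29 (Drd1 to Drd2), -0.43 to 0.44 (Drd1 to Adora2a), -0.26 to 0.24 (Drd2 to Adora2a), -0.51 to 0.10 (Drd2 to Penk) and -0.54 to 0.27 (Adora2a to Penk). Between acupuncture and normal they ranged from -0.31 to 0.20 (Drd1 to Drd2) and -0.22 to 0.50 (Drd1 to Adora2a).

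The number of all genes called depended on the method. Between HIBD model and normal 27 genes passed, against 3753 with DESeq2, 5 with limma-voom, 5 without a filter, 5 with at least 1 CPM in 4 libraries, 0 with edgeR on 2 groups (4986 at an unadjusted p under 0.05), 0 by limma-trend with 1 FPKM added (7643 at a raw p under 0.05) and 1387 with 0.1 FPKM added in place of 1, 2 with Ensembl genes, 2 with Ensembl transcript rows, and 0 to 3032 over libraries left out. Between acupuncture and normal 23 passed, against 13, 4324, 9, 11, 8, 807, 1, 1739, 2 and 1 under RLE and then the same settings in that order, and 0 to 3094 over libraries left out. Between acupuncture and HIBD model the count of 0 became 181 with DESeq2, 1 with edgeR on 2 groups and 0 to 1 over libraries left out.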

Other observations

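ENSRNOG00000009577, a gene singled out after its values were seen, split the libraries into a high and a low set. It measured 185 to 434 CPM in the 4 normal libraries, 265 and 245 CPM in HIBD model replicates 2 and 18, and 7.33 to 36.4 CPM in the other 6 libraries. Normal replicate 11 was among the high libraries for it (226 CPM) and acupuncture replicate 5 among the low ones (14.7 CPM). Of these 2 libraries, normal replicate 11 had the lower FPKM of Adora2a (4.61 against 7.96) and Drd2 (2.75 against 4.65), the higher of Drd1 (11.6 against 8.16) and nearly the same of Penk (51.29 against 51.27). Within groups its r was 0.67 with Penk, 0.50 with Adora2a, 0.39 with Drd2 and 0.30 with Drd1, with rho of 0.66, 0.61, 0.45 and 0.41 (12 libraries, exact permutation within groups, adjusted over 12 relations at least 0.769 for r and 0.674 for rho).

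The members' deviations were also set beside measures of the whole library. With the total estimated count their r lay between -0.29 and 0.03, and with the share of estimated counts in assembled loci between -0.30 and 0.17 (adjusted over the same 12 relations at least 0.769, exact permutation). Without the 2 libraries farthest from the median of the measure, r with the total lay between 0.11 and 0.46, and r with the share in assembled loci between -0.47 and 0.05.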
